A study of Homo sapiens with 6 samples.

Results

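Eukaryotic initiation factor 3 (eIF3) is the largest of the factors that start protein synthesis. It sits on the small ribosomal subunit, helps to bring in the initiator tRNA and the mRNA, and keeps the large subunit away until the start codon has been found. In mammals its core is built from subunits with a PCI domain or an MPN domain, and a peripheral module, with EIF3B, EIF3G and EIF3I, is tied to it through the scaffold subunit EIF3A. The mRNAs of 10 eIF3 subunits were followed here. They are EIF3A (ENSG00000107581_at), EIF3B (ENSG00000106263_at), EIF3D (ENSG00000100353_at), EIF3E (ENSG00000104408_at), EIF3F (ENSG00000175390_at), EIF3G (ENSG00000130811_at), EIF3H (ENSG00000147677_at), EIF3I (ENSG00000084623_at), EIF3K (ENSG00000178982_at) and EIF3L (ENSG00000100129_at). They were picked by these identifiers, all 10 were found, and they are 10 of the 26445 probe sets measured on each array. No filter on low levels was applied, so every one of them was tested. EIF3E and EIF3F are also on a gene list that the study chose from these same arrays as lowered by doxycycline, EIF3F by its RefSeq accession. That list was made from another set of array features, and a shift of either gene here is not independent evidence of its direction.

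The cells were SW480, a human colorectal cancer cell line, from an inducible clone. It carries the tetracycline repressor (pcDNA6TR, selected with blasticidin S) and a KIAA1199 construct (pT-Rex-DEST30-KIAA1199, selected with G418). Both groups of arrays come from cells with both constructs. There were 3 arrays without induction and 3 from cells given doxycycline (50 ng/ml in the labels) for 48 h, so that KIAA1199 is switched on. Each of the 3 independent experiments gave 1 array of either kind, and the question asked was which mRNAs change once KIAA1199 is made. All arrays come from a single clone, and no array holds doxycycline-treated cells without the construct. An effect of the drug and an effect of KIAA1199 thus cannot be told apart on these arrays. The paper cites earlier work reporting that doses in this range left microarray transcript levels unchanged, which was not tested here. The colorectal marker genes and KIAA1199 itself could not be matched to the identifiers and were not analysed here.

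The 5′ ends of some of these genes show a feature that the choice of genes did not use. Many mRNAs of the translation machinery begin with a terminal oligopyrimidine (TOP) tract, a C at the cap followed by an unbroken run of C and T in the DNA strand, through which their translation follows mTOR signalling. RefSeq start sites on build GRCh38.p14 were read for 5 of the 10 members. The 20 bases before the start and the 10 bases from the start on are shown for these 5, because they show which members have such a tract. Capitals mark the unbroken pyrimidines that begin at the start site.
EIF3D, chr22:36529157-36529186, minus strand: ccgctgcgcgcgcatgtttcCTCTTTTCCT
EIF3F, chr11:7987317-7987346, plus strand: gtcatttccgcttccgcctcCTTCTTTCTC
EIF3K, chr19:38619168-38619197, plus strand: gtcgtttccgtttccaccacCTCTTCCTgt
EIF3B, chr7:2354807-2354836, plus strand: ggcctccccgtcgcacgcacatggctgggc
EIF3I, chr1:32222387-32222416, plus strand: tcgaaaccttttccggtcttactcacgttg

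EIF3D, EIF3F and EIF3K start with a C and at least 4 further pyrimidines, read on the gene's own strand, while the starts of EIF3B and EIF3I begin with an A. A start of the TOP kind was found in 4.07% of the 35116 start sites in the table. These are annotated starts rather than mapped caps, and RefSeq also lists a start further upstream for EIF3B. EIF3A, EIF3G and EIF3L had no entry in the table used. The chromosome that holds EIF3E and EIF3H was left out of this step, so their starts were not examined.

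None (0) of the 10 eIF3 mRNAs passed the limits used by the study, a change of 1.2-fold or more together with a p below 0.025 before adjustment. In this test, limma with the experiment as a block, 5.83% of all 26445 probe sets passed. The methods' t-test uses the same differences, none of which reaches 1.2-fold for a member. It thus also had to place 0 of 10 past these limits, beside 2.18% of all probe sets. At an adjusted p under 0.05 the count was 0 of 10 and 0 of 26445. At an unadjusted p under 0.05 it was 0 of 10 in limma, against 12.3% of all probe sets, and 1 of 10 in the methods' t-test, against 10.4%. With a variance prior that depends on the level, limma placed 2 of 10, EIF3E and EIF3H, under an unadjusted 0.05, against 14.6% of all probe sets, both with an adjusted p of 0.33. The mean level of 5 members was higher with doxycycline and that of the other 5 was lower. The directions of EIF3F, EIF3G, EIF3K and EIF3L are not firm, since each turned in at least 1 fit without an experiment. The log2 differences (doxycycline minus uninduced) of the 10 members ran from -0.14 at EIF3E to 0.12 at EIF3B. Their median was -0.00033, beside 0.0017 over all probe sets, and the median size of a difference was 0.038, beside 0.10. The 3 differences of a member had a median SD of 0.12, and those of any probe set a median SD of 0.14. A p above the limit does not show that a level stayed the same, so the 95% intervals of limma are given with each member. The intervals of all 10 members include 0. For 4 members, EIF3A, EIF3D, EIF3F and EIF3K, the interval lies inside a change of 1.2-fold, or 0.263 on the log2 scale, in either direction. These intervals hold for the deposited levels only. The study's list gives EIF3F as lowered by more than 1.2-fold on another array feature. Such a decrease lies outside the interval of EIF3F here, where the mean difference was 0.01.

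**Figure D1:**
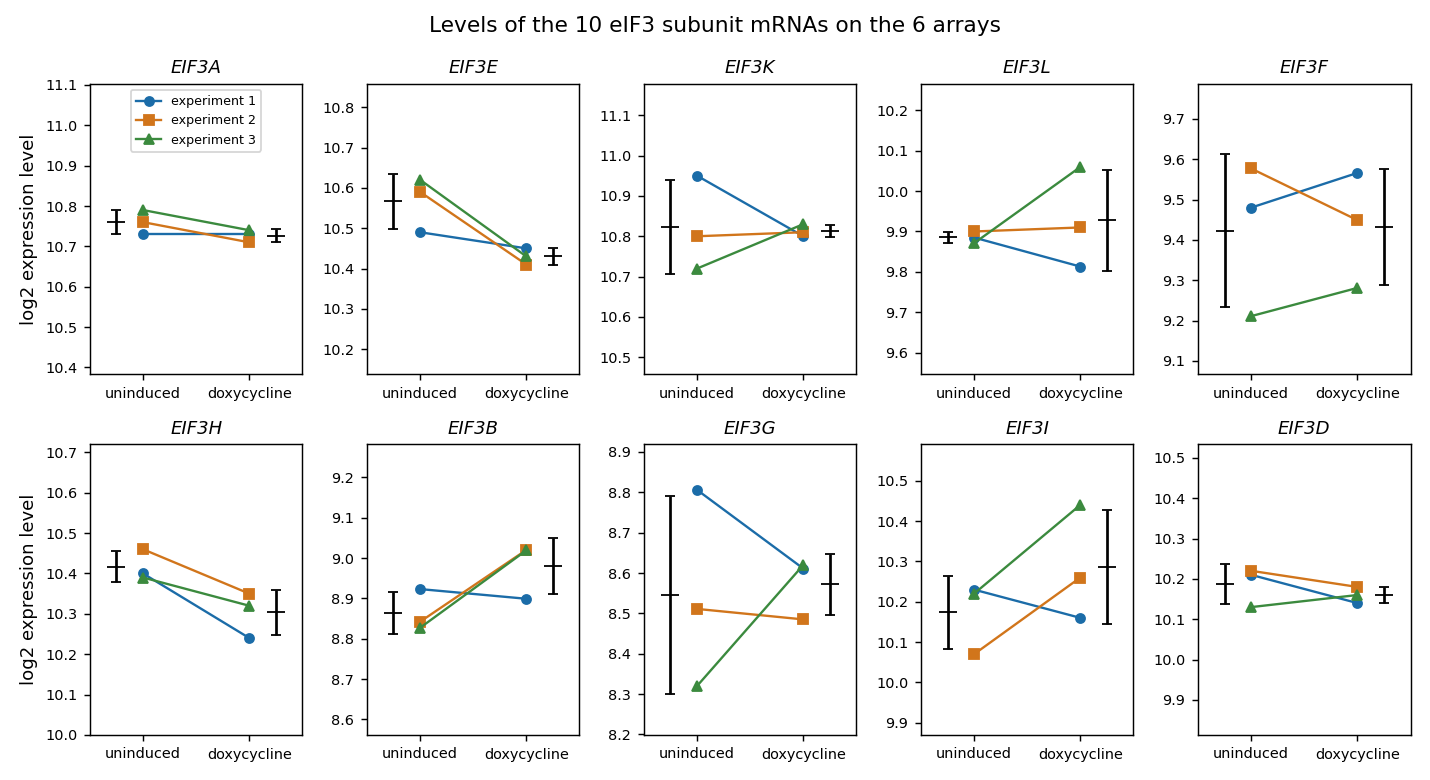
Log2 expression level (vertical axis, spanning the same range in every panel) of the 10 eIF3 subunit mRNAs in uninduced and doxycycline-treated SW480 cells. Lines join the arrays of an experiment, and the black marks beside them are group means with SD (n = 3). The lines of EIF3E and EIF3H slope down in all 3 experiments, while those of most other members run in different directions.

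The PCI subunits include EIF3E, known as INT6 from a mouse mammary tumour virus insertion site. Its log2 level was 10.49, 10.59 and 10.62 in the uninduced arrays of experiments 1, 2 and 3 and 10.45, 10.41 and 10.43 in the doxycycline arrays. All 3 doxycycline arrays were thus below all 3 uninduced ones, with the uninduced array of experiment 1 nearest to them. The group means were 10.57 ± 0.068 and 10.43 ± 0.020 (SD, n = 3). The log2 difference was -0.14 (standard error 0.069, 95% interval -0.33 to 0.05, adjusted p = 0.51 from limma), a level 1.10-fold lower with doxycycline. It was lower in all 3 experiments, by log2 differences of -0.04, -0.18 and -0.19 (two-sided p = 0.25 in an exact permutation of the signs, as low as 3 pairs can reach). A difference of this size or larger is common on these arrays, since 38.1% of all probe sets had one. The study's list gives EIF3E as more than 1.2-fold lower, on another array feature that was not analysed here. The decrease listed there is larger than the lower end of the 95% interval given here. In bulk RNA of this kind, fewer cells that express a gene and less of its mRNA per cell cannot be told apart.

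EIF3A, the scaffold that links the core to the peripheral module, had the smallest spread between its 3 differences, with an SD of 0.029. Its level was 10.73, 10.76 and 10.79 without doxycycline and 10.73, 10.71 and 10.74 with it. The groups overlapped, and the log2 difference was -0.03 (standard error 0.061, 95% interval -0.20 to 0.14, adjusted p = 0.86 from limma). EIF3K and EIF3L bind each other at the edge of the core. EIF3K was at 10.95, 10.80 and 10.72 in the uninduced arrays and at 10.80, 10.81 and 10.83 in the doxycycline arrays. Its uninduced arrays lie on both sides of the doxycycline ones, and the log2 difference was -0.01 (95% interval -0.23 to 0.21). EIF3L was at 9.88, 9.90 and 9.87 without doxycycline and at 9.81, 9.91 and 10.06 with it. Here the doxycycline arrays spread around the uninduced ones, with a log2 difference of 0.04 (95% interval -0.18 to 0.27).

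The MPN subunits are EIF3F and EIF3H, which pair within the core. EIF3H was at 10.40, 10.46 and 10.39 in the uninduced arrays and at 10.24, 10.35 and 10.32 in the doxycycline arrays. The groups did not overlap, although they lay only 0.04 apart on the log2 scale, as did those of EIF3E. The log2 difference was -0.11 (standard error 0.063, 95% interval -0.29 to 0.06, adjusted p = 0.54 from limma). The differences of the single experiments were -0.16, -0.11 and -0.07 (two-sided p = 0.25, exact permutation of the signs). EIF3H is the member under an unadjusted p of 0.05 in the methods' t-test, with a p of 0.049 and an adjusted p of 0.48. EIF3F was at 9.48, 9.58 and 9.21 without doxycycline and at 9.57, 9.45 and 9.28 with it. Both arrays of experiment 3 were the lowest of their groups. The log2 difference of EIF3F was 0.01 (95% interval -0.20 to 0.22). This value belongs to the deposited level per Ensembl identifier, not to the array feature by which EIF3F entered the study's list of lowered genes, which was not analysed here.

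EIF3E and EIF3H are the 2 members of 10 whose groups did not overlap, both lower with doxycycline. Over all probe sets, 16.6% had groups that did not overlap and 7.93% lay lower in this way. No member (0 of 10) lay higher without overlap, as 8.64% of all probe sets did. The same 2 members, and no other, were lower in all 3 experiments, as were 17.6% of all probe sets, and 0 members were higher in all 3, against 18.9%. EIF3E and EIF3H lie on the same chromosome in the RefSeq annotation, as do EIF3D with EIF3L and EIF3G with EIF3K.

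**Figure D2:**
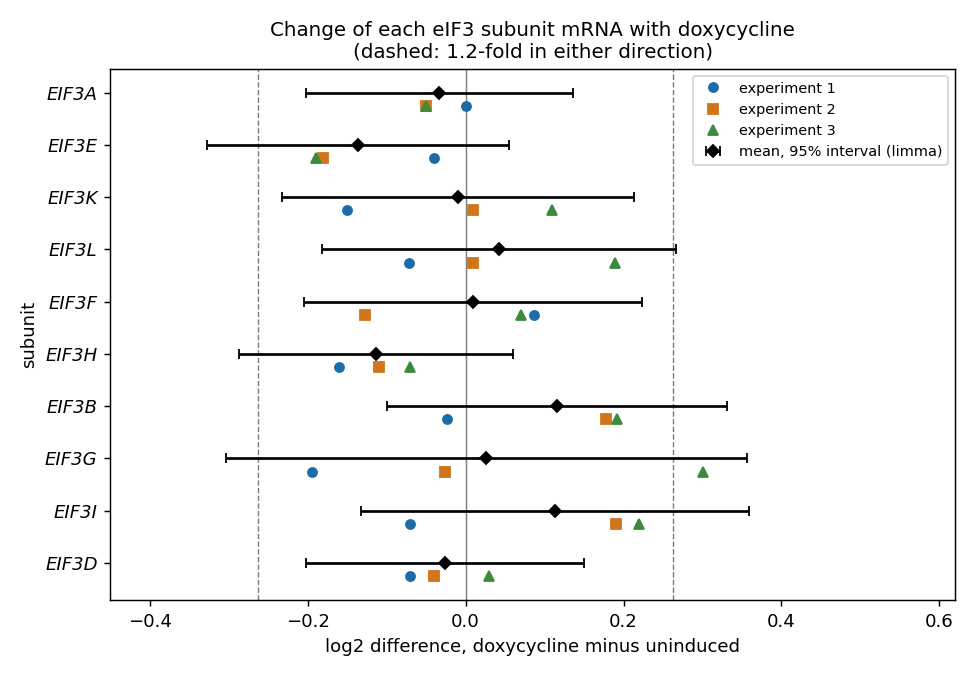
Log2 difference between doxycycline and uninduced cells (horizontal axis) for each eIF3 subunit mRNA, with the mean and its 95% interval from limma in black and the 3 experiments as coloured symbols below it. All 10 intervals cross 0, and those of EIF3A, EIF3D, EIF3F and EIF3K stay between the dashed lines at 1.2-fold.

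The peripheral module holds EIF3B, a subunit with an RNA recognition motif and a propeller fold, the WD40 protein EIF3I, and EIF3G, which contacts RNA near the mRNA entry channel. EIF3B was at 8.92, 8.84 and 8.83 without doxycycline and at 8.90, 9.02 and 9.02 with it. The doxycycline array of experiment 1 lies among the uninduced ones, and the other doxycycline arrays lie above them. The log2 difference was 0.12 (standard error 0.078, 95% interval -0.10 to 0.33, adjusted p = 0.61 from limma). EIF3I was at 10.23, 10.07 and 10.22 in the uninduced arrays and at 10.16, 10.26 and 10.44 in the doxycycline arrays. As with EIF3B, its level was lower with doxycycline in experiment 1 and higher in experiments 2 and 3, by log2 differences of -0.07, 0.19 and 0.22. The mean difference of EIF3I was 0.11 (standard error 0.088, 95% interval -0.13 to 0.36, adjusted p = 0.66 from limma). The sizes depend on single experiments. The mean difference of EIF3B was 0.185 without experiment 1, 0.084 without experiment 2 and 0.077 without experiment 3, and that of EIF3I was 0.205, 0.075 and 0.060. EIF3G had the widest spread of the members, with levels of 8.81, 8.51 and 8.32 in the uninduced and 8.61, 8.48 and 8.62 in the doxycycline arrays. The differences of EIF3G in the 3 experiments, -0.20, -0.03 and 0.30, had an SD of 0.25, and the mean of 0.03 has a 95% interval from -0.30 to 0.36.

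EIF3D, a subunit at the edge of the complex that can bind the cap of some mRNAs, was at 10.21, 10.22 and 10.13 without doxycycline and at 10.14, 10.18 and 10.16 with it. The groups overlapped, and the log2 difference was -0.03 (standard error 0.063, 95% interval -0.20 to 0.15), with -0.005 without experiment 1 and -0.055 without experiment 3. Set beside the start sites printed above, the 3 members with a TOP-like start had log2 differences of -0.03 (EIF3D), 0.01 (EIF3F) and -0.01 (EIF3K), and those with an A at the start had 0.12 (EIF3B) and 0.11 (EIF3I). These 5 genes were not tested as groups, and the start that RefSeq lists further upstream for EIF3B was not read.

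The experiments differed in the direction of the members. In experiment 1, 8 of the 10 members were lower with doxycycline, 1 was higher and 1, EIF3A, did not differ, with a median log2 difference of -0.07. In experiment 2, 6 were lower and 4 higher, with a median of -0.03, and in experiment 3, 3 were lower and 7 higher, with a median of 0.09. Over all probe sets, 49.1%, 51.0% and 51.2% were higher with doxycycline in experiments 1, 2 and 3. The medians over all probe sets were -0.004, 0.006 and 0.007. A normalization between arrays tends to hold these medians near 0, so they do not show whether the arrays as a whole shifted. The difference of EIF3E minus the median difference of the other 9 members was 0.03 in experiment 1, -0.15 in experiment 2 and -0.30 in experiment 3, so EIF3E was not lower relative to the other subunits in every experiment.

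The profiles of the members over the 6 arrays were compared after each was centred on its own mean, by the root mean square difference between them on the log2 scale. Among the 45 pairs the nearest were EIF3A with EIF3D, at 0.048, and EIF3D with EIF3H, at 0.053, and the farthest were EIF3F with EIF3I, at 0.23. The member nearest to EIF3E was EIF3A, at 0.057, followed by EIF3H at 0.062, and EIF3G was the farthest from it, at 0.20. EIF3B, EIF3I and EIF3L formed close pairs with each other, at 0.067 to 0.074. A small difference can come from a shared pattern or from profiles that are both nearly flat, as with EIF3A and EIF3D. Among all the other probe sets, 547 were nearer to EIF3E than EIF3A was. The closest were ENSG00000156103_at at 0.016, ENSG00000131747_at at 0.020 and ENSG00000120798_at at 0.020. The mean log2 levels of ENSG00000156103_at were low, 3.02 uninduced and 2.89 with doxycycline, below the array median of 5.66. These identifiers could not be named.

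**Figure D3:**
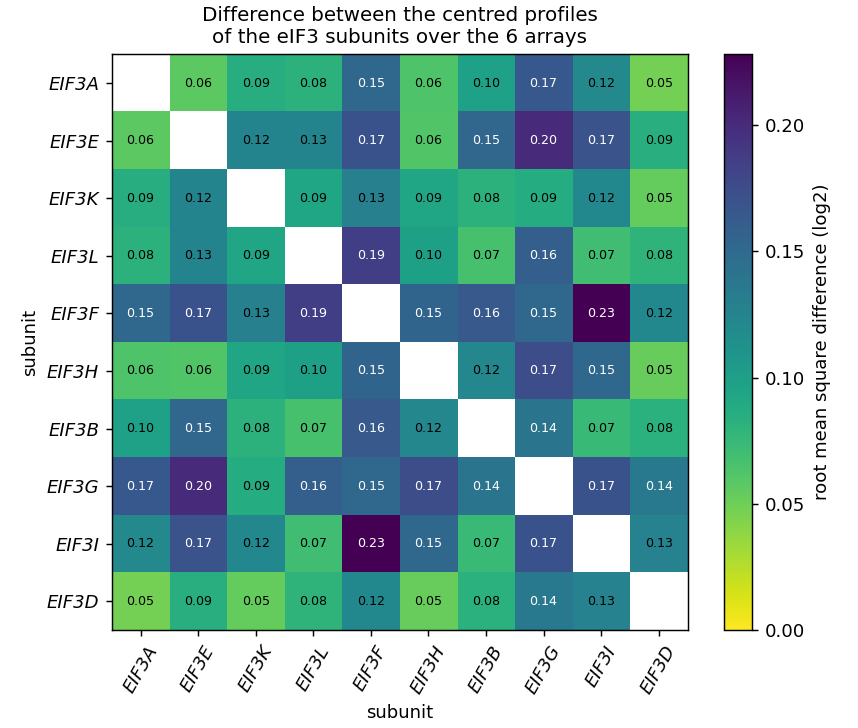
Root mean square difference (log2, colour and printed values) between the profiles of each pair of eIF3 subunits over the 6 arrays, each profile centred on its own mean. EIF3F and EIF3G differ from most other members, and EIF3A, EIF3D and EIF3H lie within 0.062 of each other.

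Near-identical copies limit what a probe set can tell. RefSeq lists processed or other pseudogenes named after EIF3E (4), EIF3F (3), EIF3K (3), EIF3L (3) and EIF3I (2), and none for the other members. Whether probes shared with these copies were removed before the levels were summarised is not given in the sources used here, so the part of such copies in the levels of these 5 genes was not tested.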

How the data were processed

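Total RNA of 6 SW480 samples was hybridised to Affymetrix exon arrays (Human Exon 1.0 ST), 1 array a sample. For each Ensembl gene identifier the authors deposited a log2 expression level per array, which per the labels were made by RMA. All 6 arrays have a median of 5.66, as after a normalization between arrays. Background settings, annotation and genome build are not given in the sources used here. Values from 10 upwards are given in steps of 0.01.

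Groups and experiment numbers came from the sample titles. Two-sided tests were made for each probe set with limma 3.58.1 (R 4.3.3), with the experiment as a block because the methods use a paired test, and the Benjamini-Hochberg adjustment covered the whole table of 26445 probe sets. The fits were tested on simulated data. Nothing establishes separate cultures beyond the statement of independent experiments, and the precision is limited by 3 arrays per group.

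The 10 subunits and all lists were chosen with earlier results of these data known. All 10 subunits are named in the text, with the probe sets nearest to EIF3E. Lists of other eIF3 subunits, cap-binding, start codon selection, elongation and COP9 signalosome genes, cell type markers and KIAA1199 (61 symbols) were planned, but the gene table used has no Ensembl identifiers (0 of 59792 rows), so they were not analysed here. Start sites came from RefSeq by symbol.

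The alternatives left out the block, used the methods' t-test, another variance prior, a filter on low levels, centring, removal of the level trend or other fold change limits, or left out each experiment.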

Additional observations from a re-analysis of the deposited data

How the results depend on the processing

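The count of eIF3 members past the limits was 0 with the block and also in the 12 alternatives tried. The centring on array medians tests nothing, since the arrays already share 1 median. Of the alternatives, only removing the level trend or leaving out an experiment can move a member's log2 difference, so only these 4 bear on its direction. In them EIF3E was lower with doxycycline, with log2 differences from -0.185 without replicate 1 to -0.11 without replicate 3. Its unadjusted p in limma was 0.12 with the replicate block and 0.081 without it, with adjusted p of 0.51 and 0.54, and it was lowest, 0.045 (adjusted p = 0.33), with a variance prior that depends on the level, where EIF3H had 0.047 (adjusted p = 0.33) and 14.6% of all probe sets were under 0.05. Over all its alternatives the adjusted p of EIF3E ran from 0.33 to 0.79. EIF3A, EIF3B, EIF3D, EIF3H and EIF3I also kept their direction in these 4. Without an experiment EIF3A ran from -0.05 to -0.025 and EIF3H from -0.135 to -0.09. The sign turned only when an experiment was left out, which leaves 2 pairs. EIF3F ran from -0.029 without replicate 1 to 0.078, with -0.021 without replicate 3. EIF3G ran from -0.11 without replicate 3 to 0.137, EIF3K from -0.07 to 0.06 without replicate 1, and EIF3L from -0.031 without replicate 3 to 0.0995. The background count of 1543 probe sets past the limits was 1050 with no replicate block, 577 with the methods' t-test and 238 with a fold change minimum of 1.5. Without an experiment it ran from 986 (experiment 3) to 1344, with 994 without experiment 2. The cause was not tested beyond the smaller number of arrays and the higher minimum. The deviations of same-numbered arrays from their group means correlated with an r of 0.039, 0.049 and 0.13 over the probe sets, so the numbers alone do not settle the pairing. The block changed no call of a member, and could not have done so at this fold change minimum. The settings planned for the lists of other translation genes were not run because these genes could not be matched. No detection calls were used.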
